A study of Mus musculus with 15 samples.

Results

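The 10 genes described here encode antioxidant enzymes of the mouse left ventricle: Nqo1, Hmox1, Gclc, Gclm, Gpx1, Gpx3, Txnrd1, Srxn1, Prdx1 and Sod2. They were taken by name, and all 10 were found among the 15258 genes of the deposited tables and passed the filter on low values that left 11018 genes for testing. NRF2 (gene Nfe2l2) is a transcription factor that KEAP1, an adaptor of the CUL3 ubiquitin ligase, marks for degradation until oxidants or electrophiles modify KEAP1. NRF2 then pairs with a small MAF protein at antioxidant response elements of genes that make glutathione, reduce thioredoxin, detoxify quinones and break down haem, while BACH1 competes for the same elements. In the heart, whose mitochondria produce superoxide and hydrogen peroxide during respiration, Nqo1, Hmox1, Gclc, Gclm, Txnrd1, Srxn1 and Prdx1 are commonly counted among NRF2 targets, and Gpx1, Gpx3 and Sod2 are peroxide and superoxide enzymes with broader control.

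The RNA came from left ventricles of male C57BL/6NRj mice and was read by BRB-seq, a barcoded assay that counts reads at the 3′ ends of transcripts. Of the 3 groups of 5 libraries, the sham saline group had sham surgery and saline, the TAC saline group had transverse aortic constriction (TAC, a band that narrows the aortic arch so that the ventricle pumps against higher pressure) and saline, and the TAC NRG group had TAC and neuregulin-1 (NRG), a growth factor ligand of ERBB receptors. Saline or NRG was given by minipump, no allele or transgene is named, and all libraries carry the same batch label. No sham group received NRG, so NRG can be compared with saline only under constriction, and the labels give no age, dose or duration. Whether the libraries of a group came from different mice is not said either, and the p-values therefore measure the spread between these libraries, which may in part be technical.

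Library totals were 2.02 to 5.62 M reads. TAC NRG 4 and TAC NRG 5 were the shallowest, at 2.02 and 2.13 M reads, and also held the most haemoglobin reads, 0.366% and 0.350% of the total. Mitochondrially encoded genes took 30.5% to 31.8% of reads in sham, 26.0% to 29.6% in TAC saline and 23.7% to 29.0% in TAC NRG. Cardiomyocyte markers summed to between 50087 and 68668 CPM in every library, and none of the listed cell type markers found in the tables was at 0 reads in all libraries (3 of 4 atrial and 3 of 5 adipocyte markers were found, and every marker of the other types). Levels below are CPM (counts per M on the authors' scaling, not divided by transcript length), as mean ± SD of 5 libraries. They are compared between groups and not between genes. Differences are log2 fold changes ± standard error (SE) from limma, with Benjamini-Hochberg adjustment over 11018 genes, and "rose" or "fell" means an adjusted p under 0.05. In bulk tissue, fewer cells of a type and less RNA per cell cannot be told apart.

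In TAC saline against sham saline, Gpx1 rose 1.25-fold and Hmox1 1.70-fold, and the other 8 enzymes did not pass the test. In TAC NRG against TAC saline, Nqo1 rose 1.40-fold, and the other 9 did not pass. In TAC NRG against sham saline, Nqo1, Gpx3, Gpx1 and Hmox1 rose, and none of the 10 fell. At an unadjusted p under 0.05 in limma, 4, 2 and 4 of the 10 were higher and 1, 0 and 1 lower in these comparisons in turn, and limma voom called 2, 1 and 4 higher and 0, 0 and 1 lower. Of all 11018 genes, 1395, 799 and 1570 were higher and 1267, 892 and 1609 lower at that unadjusted p. Limma voom called 749, 70 and 876 of them higher and 560, 61 and 739 lower. The unadjusted and voom counts of the lists below stand beside the same background. The 2 comparisons with sham share the sham libraries, and those with TAC saline share the TAC saline libraries, so their values are set side by side and not counted as repeats.

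Of all genes tested, 6.47% rose and 4.24% fell in TAC saline against sham saline, beside 2 and 0 of the 10 enzymes. In TAC NRG against TAC saline, 0.672% of all genes rose and 0.626% fell, beside 1 and 0 of the 10. In TAC NRG against sham saline, 8.74% rose and 7.39% fell, beside 4 and 0 of the 10. The median log2 fold change of the 10 enzymes was 0.19, 0.06 and 0.19 in these 3 comparisons, and that of all tested genes was -0.01, -0.01 and -0.01. Of all genes called, 60.4% were higher in TAC saline than in sham, 51.7% higher in TAC NRG than in TAC saline, and 54.2% higher in TAC NRG than in sham. Scaled by total reads alone these shares were 84.9%, 44.0% and 75.9%, and the median of all genes in the first comparison was 0.10. Per M non-mitochondrial reads the shares were 70.1%, 32.6% and 49.5%. Under both scalings 2, 1 and 4 of the 10 enzymes were called higher. Groups with no overlap between their 5 and 5 values were seen for 1 enzyme (Gpx1; 8.4% of all genes in either direction), 1 enzyme (Nqo1; 3.06%) and 4 enzymes (Nqo1, Gpx3 and Gpx1 higher, Sod2 lower; 11.7%) in the same order of comparisons.

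**Figure D1:**
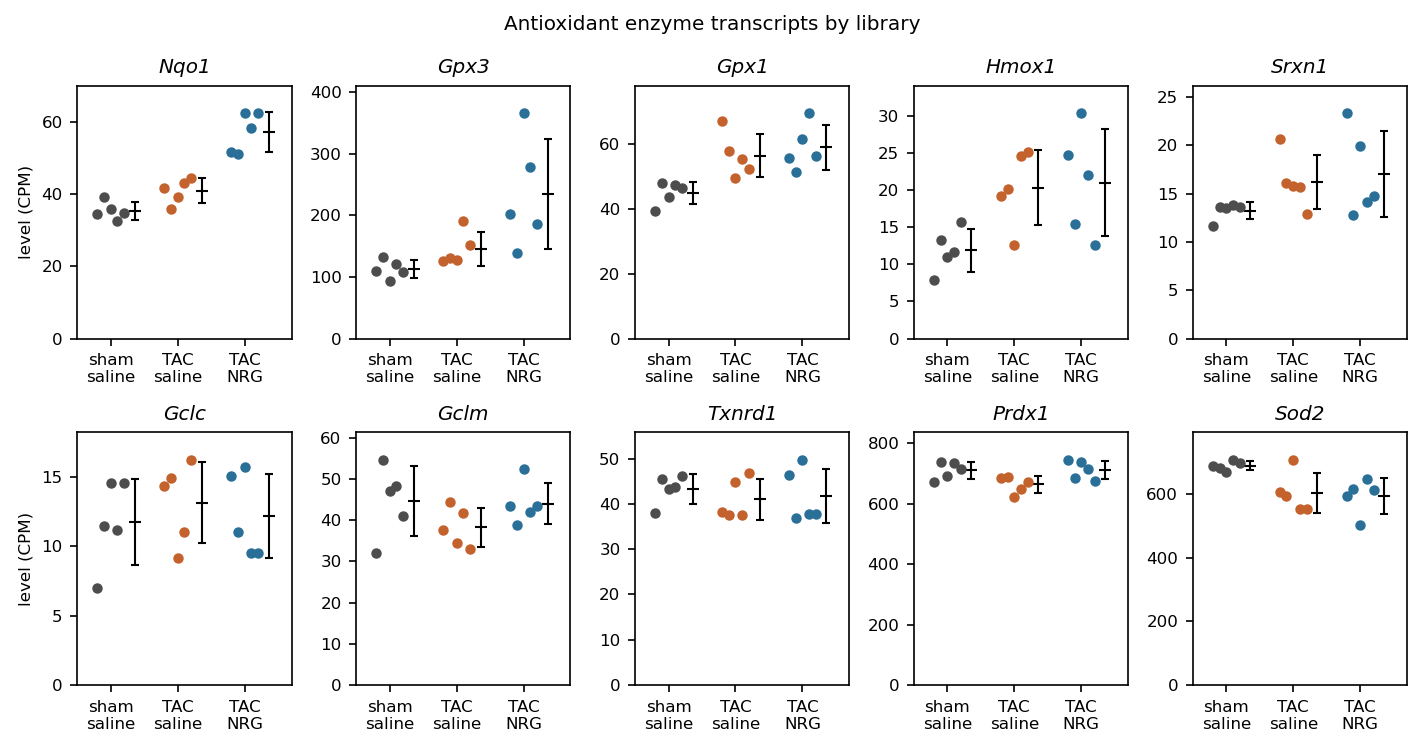
Level of each enzyme transcript (vertical axis, CPM from 0) in the 15 libraries, by group (horizontal axis). Points are libraries, and the black mark and bar are the mean and SD of 5. For Nqo1 the TAC NRG points, 51.1 to 62.5 CPM, lie above every other point, and for Hmox1 and Gpx3 the SD is largest in TAC NRG (7.18 and 89.1 CPM).

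Nqo1 encodes NAD(P)H quinone dehydrogenase, which reduces quinones without releasing reactive semiquinones and is a widely used reporter of NRF2 activity. Replicates 1 to 5 held 34.6, 39.2, 35.9, 32.5 and 34.9 CPM in sham, 41.8, 35.9, 39.3, 43.1 and 44.6 in TAC saline, and 51.8, 51.1, 62.5, 58.3 and 62.5 in TAC NRG. Every TAC NRG library was above every TAC saline and sham library, whereas TAC saline 2 lay within the sham range and TAC saline 3 lay just above its top. The means were 35.4 ± 2.44, 40.9 ± 3.44 and 57.2 ± 5.58 CPM. Nqo1 rose by 0.48 ± 0.10 with NRG under constriction, a 1.40-fold difference with a 95% interval of 1.22 to 1.6 (adjusted p = 0.0101). Against sham the TAC NRG level rose by 0.69 ± 0.10, or 1.61-fold (adjusted p = 2.1e-05), and the TAC saline difference of 0.21 ± 0.10 did not pass (adjusted p = 0.180).

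The Nqo1 difference between TAC NRG and TAC saline passed the test when any single library was left out (adjusted p 0.00825 to 0.0359). Without the 2 shallow, haemoglobin-rich libraries TAC NRG 4 and 5 together, it was 0.43 and no longer passed (adjusted p = 0.110). All 5 tested red cell transcripts (Hba-a1, Hba-a2, Hbb-bs, Hbb-bt and Alas2) rose in the same comparison, their sum with Slc4a1 ranging from 981 to 1475 CPM in TAC saline and 1704 to 3490 CPM in TAC NRG. The 2 TAC NRG libraries with the highest sums, 4 and 5, held 58.3 and 62.5 CPM of Nqo1, and TAC NRG 3, with the lowest sum of its group, also held 62.5 CPM. Of 10 cardiomyocyte markers Tnnt2 rose in this comparison, while 5 of the 10 differences were positive and 5 negative (median 0.02). At an unadjusted p under 0.05 in limma, 1 of them was higher and 3 were lower. Of 10 endothelial markers Cdh5 fell, and all 10 differences were negative (median -0.21). The part of blood RNA and of these cells in the Nqo1 difference was not tested.

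Hmox1 encodes haem oxygenase 1, which opens the haem ring to give biliverdin, carbon monoxide and iron, and is among the genes that BACH1 represses. In replicates 1 to 5 its level was 7.89, 13.3, 11, 11.7 and 15.7 CPM in sham, 19.2, 20.1, 12.6, 24.6 and 25.1 in TAC saline, and 24.7, 15.4, 30.4, 22.1 and 12.6 in TAC NRG. TAC saline 3 and TAC NRG 2 and 5 lay within the sham range, and the other 7 constricted libraries lay above it. The means were 11.9 ± 2.89, 20.3 ± 5.04 and 21.0 ± 7.18 CPM, on 28 to 119 reads per library.

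Hmox1 rose by 0.76 ± 0.22 in TAC saline against sham, 1.70-fold with a 95% interval of 1.24 to 2.33 (adjusted p = 0.0258), and by 0.78 ± 0.22 in TAC NRG against sham (adjusted p = 0.0165). Both calls sat near the threshold. The TAC saline call was lost without sham 1 or 3, or without TAC saline 1, 4 or 5 (differences of 0.62 to 0.77, adjusted p 0.0527 to 0.0888), and the TAC NRG call was lost without sham 1 or without TAC NRG 3 (differences of 0.64 and 0.63, adjusted p 0.0578 and 0.0565). Thinning every library to the fewest reads also ended the TAC saline call (0.56, adjusted p = 0.118), as did a fit without a trend of spread on level (adjusted p = 0.0830). Between TAC NRG and TAC saline the difference was 0.02 ± 0.22, with a 95% interval of -0.44 to 0.47, so a level up to 1.39-fold higher or down to 0.739-fold was not distinguishable at this spread.

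Hmox1 is also made by macrophages that take up red cells. In TAC saline against sham, 7 of the 10 macrophage markers rose (Cd68, C1qa, C1qb, C1qc, Adgre1, Tyrobp and Fcer1g) and none fell, and 7 of 10 fibroblast markers rose. In TAC NRG against sham, where Hmox1 also rose, 2 of the 10 macrophage markers did (Cd68 and C1qa), with a median of 0.28 over the 10. The macrophage markers summed to 531 to 829 CPM in sham, 604 to 1095 CPM in TAC saline and 510 to 905 CPM in TAC NRG. TAC saline 3 had the lowest macrophage and the lowest fibroblast sum of its group, 604 and 1476 CPM, and also the lowest Hmox1. TAC NRG 2 had the lowest sums of its group, 510 and 1839 CPM, and TAC NRG 3 the highest, 905 and 3239 CPM, where Hmox1 stood at 15.4 and 30.4 CPM. In other libraries the macrophage sum did not follow that order. Sham 5 had the lowest macrophage sum of sham, 531 CPM, and its highest Hmox1. TAC saline 5 had 689 CPM and the highest Hmox1 of its group, and TAC NRG 5 had 688 CPM and the lowest. Fibroblast sums in sham 5, TAC saline 5 and TAC NRG 5 were 1179, 2414 and 2059 CPM. The ranges of their groups were 1065 to 1223, 1476 to 2579 and 1839 to 3239 CPM. TAC saline 4 had the highest macrophage and fibroblast sums of its group, 1095 and 2579 CPM, and held 24.6 CPM of Hmox1, just below TAC saline 5. The part of these cells in the Hmox1 difference was not tested.

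Gpx1 and Gpx3 encode glutathione peroxidases, which use glutathione to reduce hydrogen peroxide and lipid peroxides, the first inside cells and the second secreted. Together with Txnrd1 they are the 3 selenoproteins among the 10 enzymes, in which an in-frame TGA codon is read as selenocysteine, the residue that does the catalysis. That codon is shown in capitals below in its coding context, from GENCODE vM21 transcripts, with its position on GRCm38, all on the plus strand. The codons are shown because they set these 3 enzymes apart from the other 7, and Msrb1, a selenoprotein described further on, is added for comparison.
Gpx1, codon 47 of 201, TGA at chr9:108339451-108339453: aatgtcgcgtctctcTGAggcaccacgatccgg
Gpx3, codon 73 of 226, TGA at chr11:54907256-54907258: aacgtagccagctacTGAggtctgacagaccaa
Txnrd1, codon 612 of 613, TGA at chr10:82896037-82896039: ctccagtctggctgcTGAggt
Msrb1, codon 95 of 116, TGA at chr17:24740158-24740160: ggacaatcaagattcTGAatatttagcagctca
In Txnrd1 the codon stands next to last in the coding sequence, and in Gpx1 and Gpx3 it lies nearer the start than the end.

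Gpx1 was measured at 39.2, 47.9, 43.5, 47.1 and 46.2 CPM in sham, 66.9, 57.9, 49.4, 55.3 and 52.3 in TAC saline, and 55.7, 51.2, 61.5, 69.4 and 56.4 in TAC NRG, replicates 1 to 5. All 10 constricted libraries lay above all 5 sham libraries, and the constricted groups overlapped each other. The means were 44.8 ± 3.51, 56.3 ± 6.73 and 58.8 ± 6.95 CPM. Gpx1 rose by 0.33 ± 0.10 in TAC saline against sham, 1.25-fold with a 95% interval of 1.09 to 1.45 (adjusted p = 0.0387), and by 0.39 ± 0.10 in TAC NRG against sham (adjusted p = 0.00981). With NRG against saline under constriction it differed by 0.06 ± 0.10 (adjusted p = 0.815), with a 95% interval of -0.15 to 0.27.

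The Gpx1 call in TAC saline sat near the threshold: it was lost without sham 1, 3 or 5 or without TAC saline 1, 2, 4 or 5 (adjusted p 0.0569 to 0.134), when thinned (0.28, adjusted p = 0.120) and without the trend (adjusted p = 0.0804). The TAC NRG call against sham held with each library left out, and was lost without TAC NRG 4 and 5 together, where the difference was 0.33 (adjusted p = 0.0579).

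Gpx3, the secreted peroxidase, had the largest SD relative to its mean of the 10 enzymes in TAC NRG. Its level was 110.2, 132, 93.0, 121 and 108 CPM in sham, 125, 132, 128, 192 and 152 in TAC saline, and 203, 139.6, 366, 279 and 186 in TAC NRG, replicates 1 to 5. TAC NRG 3 was the highest library and TAC NRG 2 the lowest of its group, and TAC NRG 2 and 5 lay below TAC saline 4, so the constricted groups overlapped. All TAC NRG libraries lay above all sham libraries.

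The Gpx3 means were 113 ± 14.7, 146 ± 27.7 and 235 ± 89.1 CPM. Gpx3 rose in TAC NRG against sham by 0.98 ± 0.17, 1.98-fold with a 95% interval of 1.55 to 2.52 (adjusted p = 0.00027), and it passed in that comparison with each library left out. The difference of 0.63 ± 0.17 between TAC NRG and TAC saline missed the threshold (adjusted p = 0.0695), and that of 0.36 ± 0.17 between TAC saline and sham did too (adjusted p = 0.201). Without TAC NRG 2, the deepest library at 5.62 M reads, the NRG difference was 0.79 and passed (adjusted p = 0.00825). Without TAC saline 4 it was 0.73 and passed (adjusted p = 0.0441), and with every library thinned to the fewest reads it was 0.70 and passed (adjusted p = 0.0255). With only the 2 groups fitted, the TAC saline difference from sham passed (SE 0.11, adjusted p = 0.0316). Neither difference passed under any other alternative. Fibroblast markers were also lowest in TAC NRG 2 and highest in TAC NRG 3, as given above, and their part in the Gpx3 levels was not tested.

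**Figure D2:**
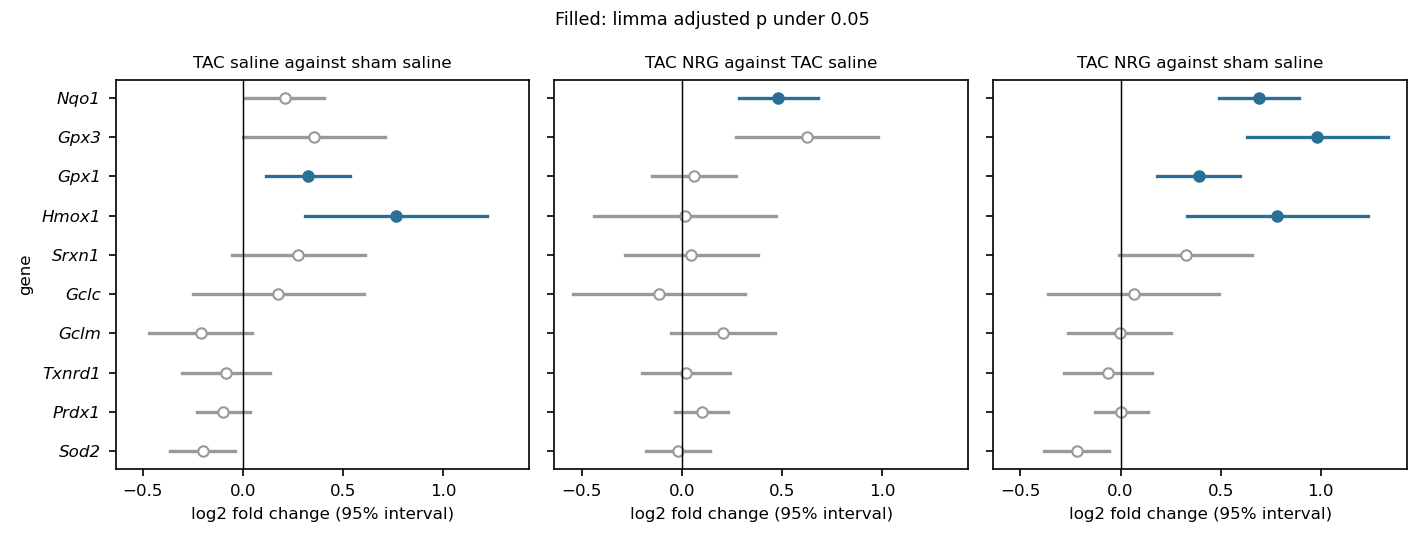
Log2 fold change of each enzyme (horizontal axis) with its 95% interval (line) in the 3 comparisons. Filled points have a limma adjusted p under 0.05: Gpx1 and Hmox1 in the left panel, Nqo1 in the middle panel and Nqo1, Gpx3, Gpx1 and Hmox1 in the right panel.

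Glutathione itself is made from glutamate and cysteine by glutamate-cysteine ligase, of which Gclc is the catalytic and Gclm the modifier subunit. Gclc was the most thinly read member, at 20 to 67 reads per library. It stood at 7.0, 11.5, 14.5, 11.1 and 14.5 CPM in sham, 14.3, 14.9, 9.18, 11 and 16.2 in TAC saline, and 15.1, 11, 15.7, 9.52 and 9.5 in TAC NRG. The 3 groups covered nearly the same range, with sham 1 alone below the rest. Gclc differed by 0.18 ± 0.21 in TAC saline against sham (adjusted p = 0.668) and by -0.11 ± 0.21 in TAC NRG against TAC saline (adjusted p = 0.839). The 95% intervals were -0.25 to 0.61 and -0.54 to 0.32, so a level 1.52-fold higher in the first or 0.687-fold in the second could not be told from no change at this depth.

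Gclm stood at 32.1, 54.7, 47.1, 48.4 and 41.1 CPM in sham, 37.7, 44.4, 34.5, 41.7 and 33.1 in TAC saline, and 43.5, 38.9, 52.3, 42.0 and 43.5 in TAC NRG. The sham libraries held both the lowest and the highest value, sham 1 and sham 2, and enclosed both constricted groups. Gclm differed by -0.21 ± 0.13 in TAC saline against sham (adjusted p = 0.326) and by 0.21 ± 0.13 in TAC NRG against TAC saline (adjusted p = 0.452), with 95% intervals of -0.47 to 0.05 and -0.05 to 0.46. Neither subunit of the ligase passed the test in these comparisons or in TAC NRG against sham.

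Txnrd1, Srxn1 and Prdx1 act in the thioredoxin branch: Prdx1 is a cytosolic peroxiredoxin that reduces peroxides, Txnrd1 is the cytosolic thioredoxin reductase that supplies its electrons by way of thioredoxin, and Srxn1 (sulfiredoxin) repairs peroxiredoxins that were over-oxidised. Txnrd1 stood at 37.9, 45.5, 43.2, 43.8 and 46.2 CPM in sham, 38.3, 37.6, 44.8, 37.5 and 46.8 in TAC saline, and 46.3, 37.0, 49.8, 37.8 and 37.8 in TAC NRG. In each constricted group 3 libraries lay at 37.0 to 38.3 CPM and 2 at 44.8 to 49.8 CPM, and all groups overlapped. Txnrd1 differed by -0.08 ± 0.11 in TAC saline against sham (adjusted p = 0.705; 0.03 scaled by total reads alone) and by 0.02 ± 0.11 in TAC NRG against TAC saline (adjusted p = 0.945; -0.03 per M non-mitochondrial reads). The 95% intervals were -0.30 to 0.14 and -0.20 to 0.24.

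Srxn1 stood at 11.7, 13.6, 13.6, 13.9 and 13.6 CPM in sham, 20.7, 16.1, 15.8, 15.7 and 12.9 in TAC saline, and 23.4, 12.8, 20, 14.2 and 14.8 in TAC NRG. All but TAC saline 5 and TAC NRG 2 lay above the sham range, and TAC saline 1, TAC NRG 1 and TAC NRG 3 were the 3 highest. The means were 13.3 ± 0.90, 16.2 ± 2.81 and 17.0 ± 4.47 CPM. The differences of 0.28 ± 0.16 in TAC saline against sham, 0.05 ± 0.16 in TAC NRG against TAC saline and 0.32 ± 0.16 in TAC NRG against sham did not pass (adjusted p = 0.312, 0.915 and 0.184).

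Prdx1 stood at 672, 738, 691, 734 and 714 CPM in sham, 685, 689.8, 623, 647 and 672 in TAC saline, and 746, 684, 737, 714 and 676 in TAC NRG. TAC saline 3 and 4 lay below the sham range, TAC NRG 1 lay above it, and the other 7 constricted libraries lay within it. Prdx1 differed by -0.10 ± 0.06 in TAC saline against sham (adjusted p = 0.387; 0.01 scaled by total reads alone) and by 0.10 ± 0.06 in TAC NRG against TAC saline (adjusted p = 0.476). With at least 1529 reads in every library, the 95% intervals of -0.23 to 0.04 and -0.03 to 0.23 were the narrowest of the 10 enzymes. Prdx1 has an annotated pseudogene copy, and reads shared with such a copy cannot be told apart here.

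Sod2 encodes the manganese superoxide dismutase of the mitochondrial matrix, which turns superoxide into hydrogen peroxide. It stood at 689, 681, 671, 709 and 699 CPM in sham, 606, 593, 708, 555 and 552 in TAC saline, and 595, 615, 502, 648 and 614 in TAC NRG. All constricted libraries but TAC saline 3 lay below all sham libraries. The means were 690 ± 14.8, 603 ± 63.2 and 595 ± 55.4 CPM, with a wider spread in each constricted group than in sham.

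Sod2 differed by -0.20 ± 0.08 in TAC saline against sham (adjusted p = 0.104) and by -0.22 ± 0.08 in TAC NRG against sham (adjusted p = 0.0566), neither past the threshold. Without TAC saline 3, the TAC saline difference was -0.26 and passed (adjusted p = 0.0205), and per M non-mitochondrial reads the TAC NRG difference was -0.23 and passed (adjusted p = 0.0194). The TAC NRG difference also passed with a filter of 10 CPM, with limma voom or with only the 2 groups fitted (adjusted p = 0.04816, 0.04955 and 0.04927). It passed too without TAC saline 3, without TAC NRG 4, or without TAC NRG 4 and 5 together (adjusted p = 0.03355, 0.04501 and 0.03582). Scaled by total reads alone, the TAC saline and TAC NRG differences from sham shrank to -0.09 and -0.13 and did not pass (adjusted p = 0.420 and 0.201). TAC saline 3 and TAC NRG 3, the high and the low library, had 29.6% and 24.4% of their reads from mitochondrially encoded genes, while TAC NRG 4 and 5, at 24.2% and 23.7%, held 648 and 614 CPM of Sod2. Of 10 cardiomyocyte markers, 3 fell and 1 rose in TAC saline against sham, and their part in the Sod2 levels was not tested. NRG against saline under constriction gave -0.02 ± 0.08 (adjusted p = 0.931), with a 95% interval of -0.18 to 0.14.

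**Figure D3:**
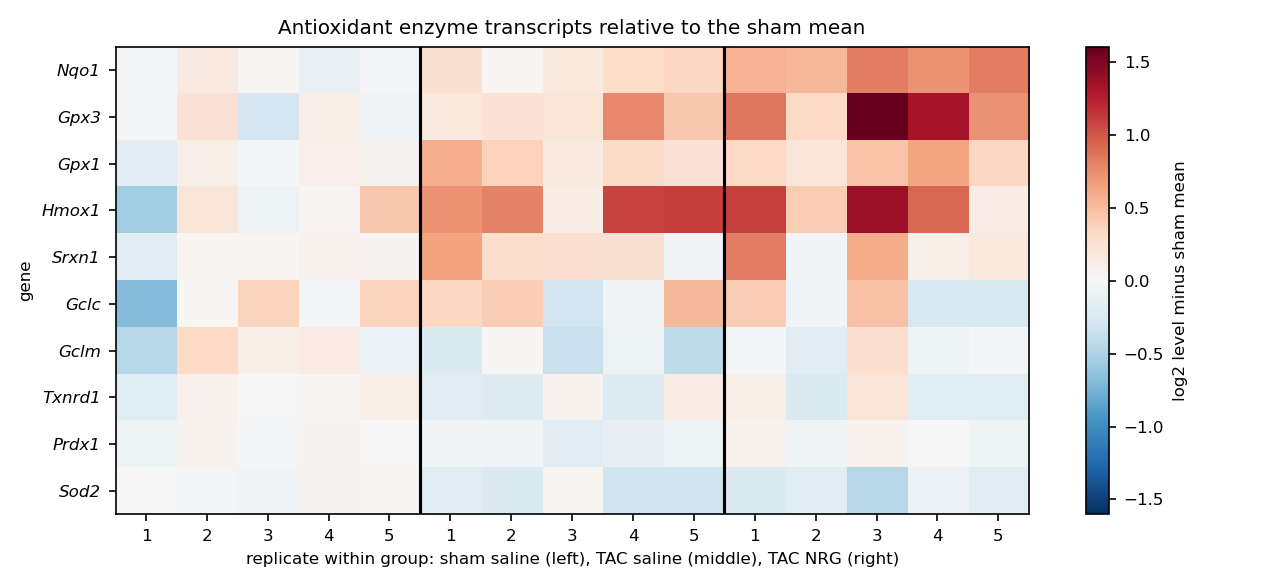
Log2 level of each enzyme (rows) in each library (columns, replicates 1 to 5 of the 3 groups) minus the sham mean; red is above and blue below it. TAC NRG 3 reads 1.71 for Gpx3 and 1.39 for Hmox1, and sham 1 reads -0.56 for Hmox1 and -0.70 for Gclc.

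The libraries of a group did not vary alike for all 10 enzymes. Sham 1 was the lowest of its group for 7 of them (Gpx1, Gclc, Gclm, Hmox1, Txnrd1, Srxn1 and Prdx1) and sham 2 the highest for 5. Among TAC NRG libraries, TAC NRG 2 was the lowest for 6 and TAC NRG 3 the highest for 5 (Gpx3, Gclc, Gclm, Hmox1 and Txnrd1), and TAC NRG 3 was also the lowest for Sod2. TAC saline 3 was the lowest of its group for 4 enzymes and the highest for Sod2. These are orders within single libraries, and the reads of all 10 enzymes in a library share its depth and its scaling.

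Promoter windows of RefSeq, 250 bases before to 50 after the annotated start on GRCm38.p6, were found for 8 of the 10 enzymes (10 windows), all but Hmox1 and Gclc. They were searched on both strands for TGACNNNGC, the core of the antioxidant response element, and for TGAGNNNGC, a variant with G in place of C that was added after the windows were read. The core was found for Gclm, Prdx1, Srxn1 and Txnrd1, in 4 of their 10 windows and in 12.4% of all 32851 windows. The variant was found for Prdx1 and Srxn1, in 2 of the 10 windows and in 17.6% of all windows. The sites are shown so that they can be read beside the values above, where none of the 4 genes that carry them passed the test in any comparison. Capitals mark the match, and the core sites lie on the opposite strand, so their letters read as the reverse complement here. Further variant matches, 158 bases before the start of Srxn1 and 15 bases after that of Prdx1, are not printed.
Gclm, chr3:122245413-122245441, plus strand, 134 bases before the start: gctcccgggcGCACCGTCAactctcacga
Prdx1, chr4:116685456-116685484, plus strand, 133 bases before the start: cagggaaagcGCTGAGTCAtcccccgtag
Txnrd1, chr10:82859104-82859132, plus strand, 92 bases before the start: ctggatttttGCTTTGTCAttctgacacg
Srxn1, variant, chr2:152105469-152105497, plus strand, 45 bases before the start: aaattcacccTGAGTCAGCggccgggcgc
Srxn1, core, chr2:152105542-152105570, plus strand, 28 bases after the start: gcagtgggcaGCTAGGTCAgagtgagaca
In Nqo1, Gpx1, Gpx3 and Sod2 these letters were not in the window searched, which says nothing of sites elsewhere in the gene.

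The regulators of NRF2 were read next. Of 10 (Nfe2l2, Keap1, Cul3, Rbx1, Bach1, Mafg, Mafk, Maff, Sqstm1 and Nfe2l1), none passed the test in TAC saline against sham or in TAC NRG against TAC saline; the smallest limma adjusted p were 0.0593 and 0.0780. At an unadjusted p under 0.05, 1 was lower in the first and 3 were higher in the second, and limma voom called 1 lower (Cul3) in the first and 0 in the second. Nfe2l2 held 66.2 to 86.0 CPM in sham, 76.9 to 86.9 CPM in TAC saline and 64.3 to 94.1 CPM in TAC NRG, and differed by 0.16 ± 0.10 and -0.14 ± 0.10 (adjusted p = 0.364 and 0.551). Keap1 held 40.8 to 53.9, 39.2 to 45.6 and 32.7 to 47.9 CPM, and differed by -0.07 ± 0.11 and -0.06 ± 0.11 (adjusted p = 0.758 and 0.832). NRF2 is controlled largely through its protein, which these RNA data do not read.

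Among the small MAF partners, Maff held 13.0, 10.4, 9.41, 14.5 and 15.7 CPM in sham, 15.8, 12.6, 13.7, 17.4 and 12.9 in TAC saline, and 19.8, 19.4, 23.3, 22.1 and 19.2 in TAC NRG. As for Nqo1, all TAC NRG libraries lay above all others. Maff rose by 0.74 ± 0.15 in TAC NRG against sham (adjusted p = 0.00123), and its difference of 0.53 ± 0.15 from TAC saline did not pass (adjusted p = 0.0780). Mafk rose by 0.43 ± 0.13 in TAC NRG against sham (adjusted p = 0.0249), a call lost without sham 3 or 5 or without TAC NRG 3 or 4 (adjusted p 0.0631 to 0.0864). Mafg, the other small MAF on the list, went the opposite way. It held 38.6, 44.4, 44.2, 47.8 and 44.4 CPM in TAC saline, and 44.4, 40.6, 51.8, 19.3 and 26.7 in TAC NRG. Its differences of -0.35 from TAC saline and -0.34 from sham did not pass, and its low values were in TAC NRG 4 and 5. None of the other 8 regulators passed in TAC NRG against sham.

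Of 27 other tested NRF2 target genes, 1 rose and 1 fell in TAC saline against sham, with a median of -0.05. Txn1, which encodes thioredoxin, rose by 0.29 ± 0.09 (adjusted p = 0.0389), and Gstm1, a glutathione transferase, fell by 0.45 on the log2 scale (SE 0.12, adjusted p = 0.0218). The Txn1 call was lost in 8 of 15 and the Gstm1 call in 4 of 15 fits with a library left out (adjusted p up to 0.108 and 0.0895), and Gstm1 also when scaled by total reads alone (adjusted p = 0.0698). None of the 27 passed in TAC NRG against TAC saline (median 0.08, smallest limma adjusted p = 0.136), where 2 were higher at an unadjusted p under 0.05 and limma voom called 0. Txn1 rose by 0.41 ± 0.09 in TAC NRG against sham (adjusted p = 0.0022), the only call among the 27 there.

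Of 34 other glutathione, thioredoxin and peroxide enzymes, 1 rose and 4 fell in TAC saline against sham, with a median of -0.12. Gpx7, a peroxidase of the endoplasmic reticulum, rose by 0.75 ± 0.16 (adjusted p = 0.00359), from 11.6 ± 2.07 to 19.6 ± 4.12 CPM. The peroxiredoxins Prdx3, Prdx5 and Prdx6 and the mitochondrial methionine sulfoxide reductase Msrb2 fell by 0.29, 0.26, 0.24 and 0.44 on the log2 scale (adjusted p = 0.0116, 0.0358, 0.0383 and 0.0132). Leaving out TAC saline 5 ended each of these 4 calls (adjusted p 0.0506 to 0.125), and 8 of 15 such fits ended those of Prdx5 and Prdx6. Scaled by total reads alone, Prdx3, Prdx5 and Prdx6 did not pass either (adjusted p = 0.0568, 0.164 and 0.232). Prdx3, like Sod2, works in the mitochondrial matrix. Of the 34, 3 rose in TAC NRG against sham (Gpx7, Gpx8 and Msrb1) and 3 fell (Prdx3, Msrb2 and Oxr1).

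Msrb1, a selenoprotein that reduces oxidised methionine, was the 1 of those 34 past the threshold in TAC NRG against TAC saline. It held 119, 123, 116, 123 and 110.3 CPM in sham, 127, 110.1, 138, 106 and 116 in TAC saline, and 162, 146, 179, 188 and 171 in TAC NRG. As with Nqo1, all TAC NRG libraries stood above all others, while sham and TAC saline overlapped. Msrb1 rose by 0.50 ± 0.08 with NRG (adjusted p = 0.00187) and differed by 0.01 ± 0.08 between TAC saline and sham (adjusted p = 0.961). The NRG call held under all 28 alternatives run, including without TAC NRG 4 and 5 together (adjusted p up to 0.0399).

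The selenoprotein list allowed the selenium-dependent members to be set beside their family. Of 16 tested genes of selenoprotein synthesis and other selenoproteins, 2 rose and none fell in TAC saline against sham. These were Selenof (0.42 ± 0.09, adjusted p = 0.00228) and Selenom (0.44 ± 0.11, adjusted p = 0.0112), both of the endoplasmic reticulum. None of the 16 passed in TAC NRG against TAC saline (median 0.11, smallest limma adjusted p = 0.0780), where 2 were higher and 1 lower at an unadjusted p under 0.05 and limma voom called 0. Selenof and Selenom also rose in TAC NRG against sham (0.61 ± 0.09 and 0.52 ± 0.11, adjusted p = 2.56e-05 and 0.00171), and 1 of the 16 fell. It was Selenop, the plasma selenium carrier, which fell by 0.47 on the log2 scale (SE 0.11, adjusted p = 0.00425).

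Of 9 tested oxidant-producing enzymes, none rose and 2 fell in TAC saline against sham, Maob (-0.43 ± 0.12, adjusted p = 0.0206) and Xdh (-0.46 ± 0.15, adjusted p = 0.0419), with a list median of 0.21. At an unadjusted p under 0.05 in limma, 4 of the 9 were higher and 2 lower there, and 6 of the 9 differences were positive. The Xdh call was lost in 9 and the Maob call in 3 of 15 fits with a library left out. In TAC NRG against sham, Rac1 rose and Xdh and Maob fell. Of 12 tested haem and iron genes, Tfrc, the transferrin receptor, and Alas1, the first enzyme of haem synthesis, rose by 0.94 ± 0.24 and 0.30 ± 0.09 (adjusted p = 0.0123 and 0.0306), and the iron exporter Slc40a1 fell by 0.76 on the log2 scale (SE 0.23, adjusted p = 0.0351). Left-out libraries ended the Tfrc call in 1, the Alas1 call in 5 and the Slc40a1 call in 6 of 15 fits. Neither list had a gene past the threshold in TAC NRG against TAC saline (smallest limma adjusted p = 0.0643 and 0.124). At an unadjusted p under 0.05, 2 oxidant-producing enzymes were lower and 3 haem and iron genes higher there, and limma voom called 0 of either list.

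**Figure D4:**
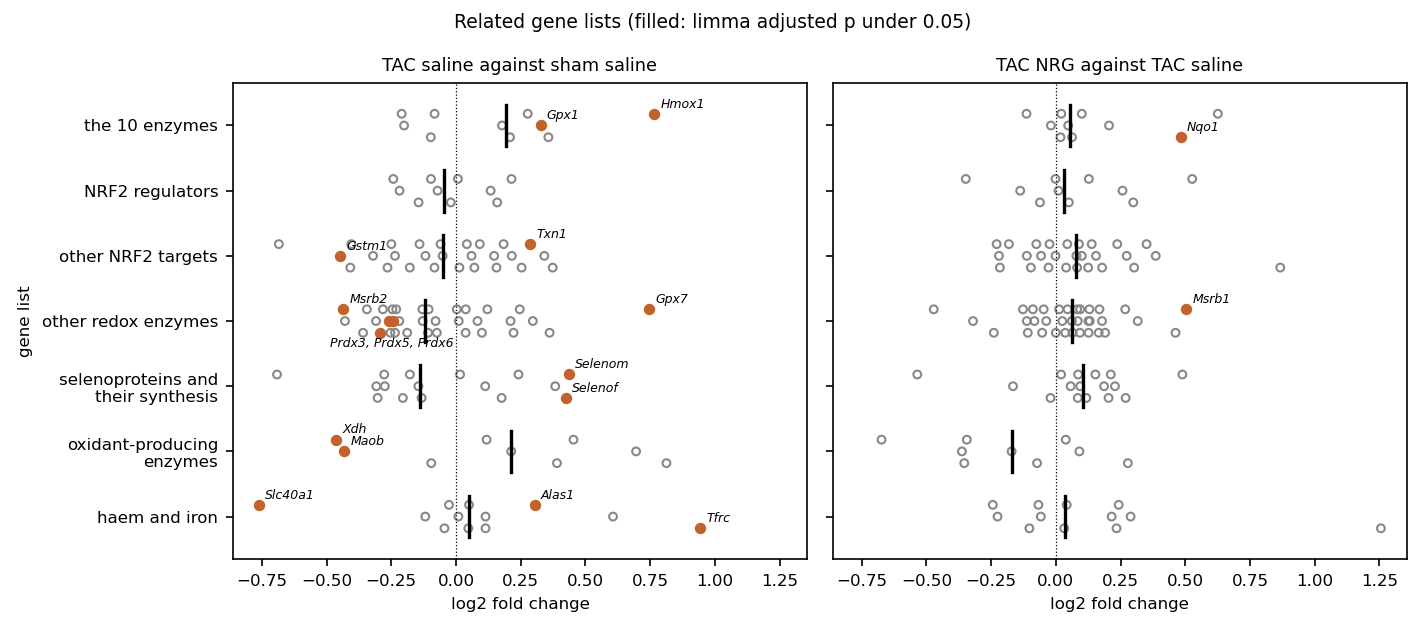
Log2 fold changes (horizontal axis) of the tested genes of 7 lists (rows) in TAC saline against sham saline (left) and TAC NRG against TAC saline (right). Each circle is a gene, filled and named where the limma adjusted p is under 0.05, and the vertical bar is the list median. On the right the filled genes are Nqo1 and Msrb1.

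For each enzyme that passed a test, the genes with the most similar profile over the 15 libraries were found by the root mean square (RMS) difference of log2 levels, each gene centred on its sham mean, among genes with a mean of at least 20 CPM. Closest to Nqo1 were Tmbim1, Anxa7 and Lgals1, at RMS differences of 0.0957, 0.101 and 0.120, where the median over 4799 genes was 0.488. For Gpx3 they were Efhd2, Clu and Mgp (0.173, 0.197 and 0.240, median 0.725), and for Gpx1 Leprot, Gnb1 and Prnp (0.122, 0.129 and 0.131, median 0.398). For Hmox1 they were Pls3, Emp3 and Sh3bgrl3 (0.281, 0.292 and 0.292, median 0.789). None of these 12 genes is another of the 10 enzymes. Gclc, Srxn1 and Hmox1 had means under 20 CPM, so they could not have been found as neighbours of another enzyme. The measure is a description of likeness over libraries that share depth and scaling.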

How the data were processed

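Left ventricular RNA of 15 libraries (3 groups of 5, grouped by title) was analysed from the deposited log2 values, 1 table per library. The authors' log2 values are log2 of reads plus 0.5 times a factor per library, as read from their spacing; the genome build is GRCm39, per the submitters' processing notes, and for aligner and counter none is named (not given in the sources used here). Whole reads were recovered from the spacing: 98.9% to 99.5% of values per library lay within 0.05 of a whole read. Printed CPM are the deposited values out of the log, divided by 1000. Libraries of a group were not duplicates (chi-square per degree of freedom 2.27 to 12.1). This measure was 2.42 between TAC NRG 4 and 5, and 7.52 to 12.1 between either of them and TAC NRG 1 to 3. Between TAC NRG 2 and 3 it was 9.38. The cause of these distances was not tested.

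These log2 values, for all 15 libraries together, were tested with limma (version 3.58.1, R 4.3.3), letting the spread follow the mean level, two-sided, with a median SE of 0.16. A gene was kept if 5 or more libraries held 2.95 reads per M, equal to 10 reads at median depth, and its reads summed to 15 or more. The fit was checked on simulated data. The members and gene lists were chosen with earlier results of these data known. Named genes were the 10 enzymes, the NRF2 regulators, up to 4 members of each other list with the smallest adjusted p past the threshold, list members in counts of 5 or fewer, and the 3 genes most like each enzyme that passed, leaving out predicted genes; marker genes in larger counts, and genes listed by name beside a count, were named after their values were seen. Alternatives covered scaling, pseudocount, filter, spread, voom weights, groups fitted, replicate block, thinning and left-out libraries. Sequences came from RefSeq (GRCm38.p6) and GENCODE vM21 (GRCm38). Figures were made with matplotlib 3.10.9.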

Additional observations from a re-analysis of the deposited data

Results flagged for a closer look

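In sham saline 1, Srxn1 stood at 11.7 CPM, the lowest of its group, while the other 4 sham libraries lay between 13.6 and 13.9 CPM. The gap to the nearest of them was 0.864 of the group's whole range on the log2 scale, above the critical value of 0.71 for 5 samples. It was the only flag among 30 groups of 5 examined (10 enzymes in 3 groups), and chance flags about 1 in 20 groups.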

How the results depend on the processing

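The 3 comparisons were recomputed under 28 alternatives, 15 of which left out a library. For the 10 enzymes in 3 comparisons, 764 of 840 recomputed differences kept their direction and their side of the threshold, 22 lost a call, 12 gained a call and 42 changed sign, none of the last with a call. The enzyme calls lost when a library was left out are given beside their values in the report; Nqo1, Gpx3 and Gpx1 in TAC NRG against sham, and Nqo1 in TAC NRG against TAC saline, held in all 15 fits with a library left out. The cause of the changes below was not tested.

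Genes past the threshold numbered 1180 in TAC saline against sham and 726 without the trend of spread on level, with a range of 636 to 1495 when a library was left out. They numbered 143 in TAC NRG against TAC saline, and 40 without the trend, 77 with only the 2 groups fitted, 95 with every library thinned to the fewest reads, 39 without TAC NRG 4 and 5 and 58 to 229 when a library was left out. Of the 10 enzymes, 2 passed in TAC saline against sham, and 0 without the trend, 0 when thinned and 0 to 3 when a library was left out. In TAC NRG against TAC saline 1 passed, and 2 when thinned, 0 without TAC NRG 4 and 5 and 1 to 2 when a library was left out. Without the trend, Hmox1 also missed the threshold against sham in TAC NRG (adjusted p = 0.0565).

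No pairing by replicate number was visible in the values. The 15 correlations of deviations between same-numbered libraries ran from -0.246 to 0.0795, and a library matched its own number best in 7 of 30 tries. Such correlations cannot show whether same-numbered samples were handled together, and the labels do not say. With the replicate block, 1 of the 10 enzymes passed in TAC saline against sham, since Gpx1 had an adjusted p of 0.0620.

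Signs changed only in differences without a call. Without TAC NRG 4 and 5, TAC NRG against TAC saline gave -0.0012 for Gpx1, 0.10 for Gclc and 0.073 for Keap1, and against sham 0.019 for Gclm, 0.026 for Txnrd1 and 0.0020 for Keap1. Scaled by total reads alone, Gclm and Txnrd1 in TAC NRG against sham gave 0.089 and 0.032, and Txnrd1, Prdx1 and Keap1 in TAC saline against sham 0.027, 0.013 and 0.039. Per M non-mitochondrial reads, TAC NRG against TAC saline gave -0.035 for Hmox1, -0.032 for Txnrd1 and -0.0058 for Srxn1, and against sham -0.010 for Prdx1. Gclm in TAC NRG against sham gave 0.0015 with 5 reads added and 0.0048 with voom weights, Txnrd1 gave 0.043 when thinned, and Hmox1 in TAC NRG against TAC saline gave -0.0054 with voom weights. When a library was left out, TAC NRG against sham ranged from -0.11 to 0.15 for Gclc, -0.12 to 0.074 for Gclm, -0.017 to 0.021 for Prdx1 and -0.069 to 0.085 for Nfe2l2. TAC NRG against TAC saline ranged from -0.14 to 0.19 for Hmox1, -0.045 to 0.070 for Txnrd1, -0.076 to 0.14 for Srxn1, -0.051 to 0.041 for Sod2 and -0.12 to 0.017 for Keap1.

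Depth limits Gclc, Srxn1 and Hmox1 most, at 20 to 119 reads per library.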
